A study of Homo sapiens with 18 samples.

Results

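Autophagy is the process by which cells wrap cytoplasm, organelles or selected cargo in a double membrane and deliver them to the lysosome. The ULK1 kinase complex starts the process, the class III phosphatidylinositol 3-kinase complex marks the site with a lipid, and 2 linked ubiquitin-like conjugation reactions attach proteins of the ATG8 family to the growing membrane, or phagophore. Cargo receptors then tether their load to ATG8 proteins, and the transcription factors TFEB and TFE3 are known to activate autophagy and lysosomal genes. Oxygen shortage is a known inducer of autophagy, and the hypoxia-inducible factors HIF-1 and HIF-2 are known to activate some of the genes that select mitochondria for it. The mRNA level of this machinery was followed here through 40 named genes, all of which were found among the 23106 genes counted in each sample. They comprised 6 genes grouped under the ULK1 complex (with ULK3 counted there), 6 of the class III kinase complexes and 6 of phagophore expansion. The others were 11 of the conjugation systems, 5 of the ATG8 family, 4 cargo receptors and 2 transcription factors. The list names genes by their role in the pathway and applies no threshold to a measured value.

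PolyA+ RNA-seq had been performed on 18 samples, 3 normoxic and 3 hypoxic from each of 3 established human cell lines. HKC-8 (labelled HKC8) is a kidney proximal tubule line, RCC4+VHL is a kidney cancer line that lacked functional VHL and was stably transfected with the wild-type gene, and HepG2 is a hepatocellular cancer line. VHL targets HIF-α subunits for destruction in the presence of oxygen. HepG2 and HKC-8 cells had been exposed to 0.5% oxygen for 16 h, although in the HKC-8 titles hypoxia is written as 0.1% and normoxia as 21%. The RCC4+VHL labels give 1.0% oxygen for 24 h, whereas the study's text describes the same exposure as for the other lines, so the exposure of RCC4+VHL is uncertain and its response was set beside the others without a test of the difference. Each line is a single cell population, so replicates measure the spread between cultures or libraries of that population, and nothing in the labels says whether they were separate cultures. The total count was 75441764 to 97984260 per HKC-8 sample, 42045335 to 51794355 per RCC4+VHL sample and 40915980 to 48355303 per HepG2 sample. All of the 20 listed hypoxia-induced genes were higher in hypoxic HKC-8 and HepG2 cells, as were the 18 of them that could be tested in RCC4+VHL cells, by a median log2 fold change of 1.89, 2.69 and 2.09, respectively. Hepatocyte markers were abundant in HepG2 cells, whereas in HKC-8 cells 1 of 9 and in RCC4+VHL cells 2 of 9 had enough counts to test. Of 11 kidney tubule markers, 9 could be tested in RCC4+VHL cells, 5 in HKC-8 cells and also 5 in HepG2 cells. In normoxia, 3 of 9 tested were higher and 2 lower in HepG2 than in HKC-8 cells, so the list did not set HKC-8 apart from the liver line. In HKC-8 cells PAX8 was at 165 normalised CPM (read counts scaled to library size). The tubule genes LRP2, CUBN, AQP1 and SLC34A1 had a mean of at most 0.47 CPM there in either oxygen group. These are bulk measurements, in which fewer expressing cells and less RNA per cell cannot be told apart.

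Hypoxia moved the autophagy genes in both directions and mostly by less than 1.5-fold, as it did most genes tested. The median absolute log2 fold change of the autophagy genes was 0.176 in HKC-8, 0.183 in RCC4+VHL and 0.181 in HepG2 cells. For all genes tested it was 0.221, 0.178 and 0.213. At an adjusted p below 0.05 (edgeR's quasi-likelihood test with Benjamini-Hochberg adjustment over all genes, used for each adjusted p given here), 3 of the 39 genes tested were higher and 4 lower in hypoxic HKC-8 cells, a share of 17.9% against 20.4% of all genes tested (11.2% higher and 9.12% lower). Of the 39 tested in RCC4+VHL cells, 8 were higher and 12 lower, a share of 51.3% against 50.1% (25.9% and 24.2%). In HepG2 cells 9 of 38 were higher and 11 lower, a share of 52.6% against 39.1% (19.9% and 19.2%). Neither the 17.9% nor the 51.3% stood far from its background. The median log2 fold change of the autophagy genes was 0.03 in HKC-8, -0.04 in RCC4+VHL and -0.09 in HepG2 cells, with all genes tested at 0.0036, -0.0018 and -0.0044. Of the called genes, 1 in HKC-8 cells (ULK2), none in RCC4+VHL cells and 4 in HepG2 cells (PIK3C3, SQSTM1, ATG3 and TFEB) reached 1.5-fold. The share of all called genes that reached it was not computed. Of the genes that were not called, the 95% interval lay within 1.5-fold for 26 of 32 in HKC-8, 16 of 19 in RCC4+VHL and 18 of 18 in HepG2 cells. The exceptions in HKC-8 cells were ATG4D, ATG10, ATG16L2, WIPI1, OPTN and TFEB.

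**Figure D1:**
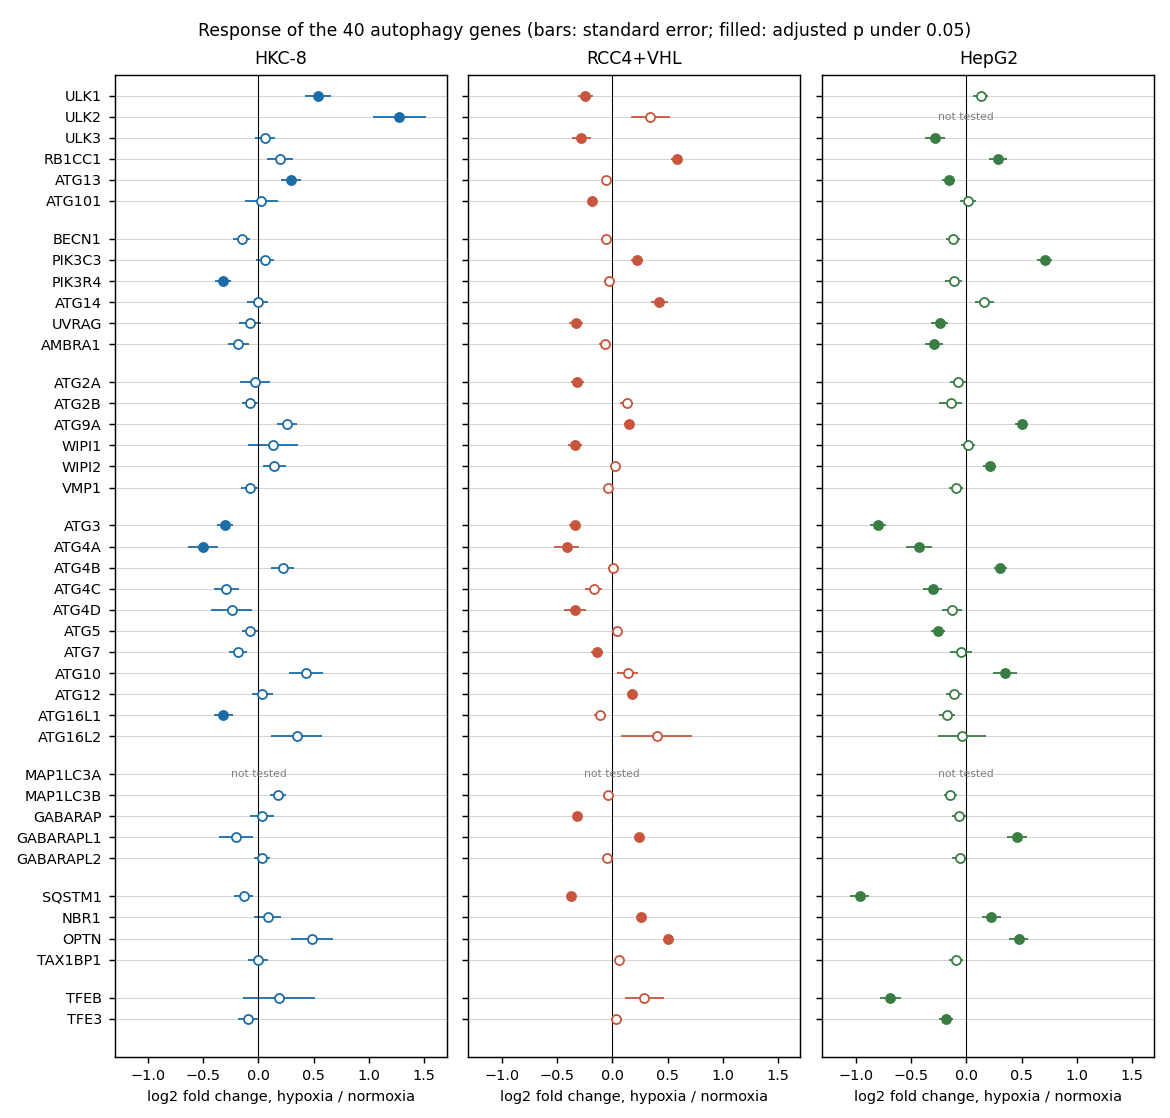
Log2 fold change (hypoxia against normoxia) of the 40 autophagy genes in each cell line, grouped from top to bottom as ULK1 complex (with ULK3), class III kinase complexes, phagophore expansion, conjugation, ATG8 family, cargo receptors and transcription factors. Points are fitted values, bars are standard errors and filled points passed the test. ATG3 and ATG4A are filled on the left of 0 in all 3 panels.

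Across the lines, 32 of the 40 genes passed the test somewhere and 2 passed it in all 3 lines (33 and 4 with the replicate block for HKC-8 described below). Of all genes tested, 20.4% were called in HKC-8, 50.1% in RCC4+VHL and 39.1% in HepG2 cells. The shares of all genes called in any line or in all 3 were not computed. The counts across lines in this paragraph thus have no background of their own. ATG3 and ATG4A were lower in each line. A further 6 genes were higher in both RCC4+VHL and HepG2 cells (RB1CC1, PIK3C3, ATG9A, GABARAPL1, NBR1 and OPTN) and 3 were lower in both (ULK3, UVRAG and SQSTM1). ULK1 and ATG13 were called in opposite directions in a pair of lines. Of the 19 genes called in a single line, 6 were higher and 13 lower. The 8 genes called in no line were BECN1, ATG2B, ATG16L2, MAP1LC3A, MAP1LC3B, GABARAPL2, TAX1BP1 and VMP1.

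In HKC-8 cells, same-numbered samples tended to shift alike within their oxygen groups (r = 0.113, 0.469 and 0.456 over genes). Each r was above the 0.1 asked here for pairing, replicate 1 only just. Normoxic replicate 1 correlated best with hypoxic replicate 2. Whether the numbers mark pairs is thus uncertain, and calls that need the block depend on it. In HepG2 cells, left unpaired, the same number was the best match for all 3 replicates (r = 0.162, 0.061 and 0.181). With the number as a block, 8 autophagy genes were higher and 7 lower in hypoxic HKC-8 cells, in place of 3 and 4. Over all 13536 genes tested, the block raised the counts from 1522 higher and 1235 lower to 2836 and 2919. The rise was thus not particular to the autophagy genes. All 7 original calls of autophagy genes held. The genes gained were ATG4B (adjusted p = 0.0132), ATG9A (0.00535), ATG10 (0.0128), MAP1LC3B (0.0271) and OPTN (0.000308), each higher, and AMBRA1 (0.0345), ATG4C (0.0148) and ATG7 (0.0415), each lower. ATG9A and OPTN thereby joined ATG3 and ATG4A, so that 4 genes passed in all 3 lines and 33 somewhere. Without the block their adjusted p had been 0.0639 to 0.201. The unblocked HKC-8 calls rested on single libraries: leaving out normoxic replicate 1 or hypoxic replicate 1 left 2 or 1 genes higher and 0 lower, leaving out normoxic replicate 2 left 1 and 1, leaving out hypoxic replicate 3 left 2 lower, and only ULK2 was called whichever library was left out. In HepG2 cells, leaving out hypoxic replicate 1 or hypoxic replicate 2 left 5 or 6 genes lower in place of 11. In RCC4+VHL cells, 9 calls were lost when all 18 samples were fitted together, namely those of ULK1 (adjusted p = 0.0677), ATG101 (0.241), ATG4D (0.0988), ATG7 (0.207), ATG9A (0.128), ATG12 (0.113), WIPI1 (0.085), GABARAPL1 (0.147) and NBR1 (0.0775).

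ATG3 and ATG4A, both of the conjugation machinery, were the genes lowered in all 3 lines. ATG3 is the E2-like enzyme that transfers ATG8 proteins to phosphatidylethanolamine, and ATG4A is one of the cysteine proteases that trim ATG8 proteins before that step and release them from membranes afterwards. The normalised CPM of ATG3 in HKC-8 cells was 89.7, 90.3 and 86.5 in normoxia and 68.4, 74.9 and 71.7 in hypoxia. It was 55.5, 51.1 and 51.6 in normoxia and 40.5, 41.8 and 41.7 in hypoxia in RCC4+VHL cells and 42.9, 47.01 and 44.96 in normoxia and 25.2, 26.6 and 25.4 in hypoxia in HepG2 cells. In each line every hypoxic sample lay below every normoxic one. The log2 fold change of ATG3 was -0.30 ± 0.07 (SE, adjusted p = 0.0193) in HKC-8, -0.34 ± 0.05 (SE, adjusted p = 2.75e-06) in RCC4+VHL and -0.80 ± 0.07 (SE, adjusted p = 1.31e-06) in HepG2 cells. Part of the ATG3 transcript, 7.27% of its bases, overlaps exons of SLC35A5 on the opposite strand, and SLC35A5 itself changed by -0.26 on the log2 scale in HepG2 cells (adjusted p = 0.00662). The strand setting of the counting is not given in the sources used here, and the part of this overlap in the result was not tested.

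ATG4A was present at a lower level. Its normalised CPM was 12.02, 10.9 and 11.3 in normoxia and 9.104, 8.22 and 6.704 in hypoxia in HKC-8 cells, 9.72, 10.6 and 12.3 in normoxia and 7.49, 7.16 and 9.65 in hypoxia in RCC4+VHL cells and 10.4, 10.7 and 10.6 in normoxia and 7.38, 6.92 and 9.16 in hypoxia in HepG2 cells. The hypoxic samples were all below the normoxic ones in each line, the nearest being hypoxic replicate 3 and normoxic replicate 1 of RCC4+VHL. The log2 fold change was -0.50 ± 0.14 (SE, adjusted p = 0.0342) in HKC-8, -0.41 ± 0.11 (SE, adjusted p = 0.00387) in RCC4+VHL and -0.43 ± 0.11 (SE, adjusted p = 0.00982) in HepG2 cells. In HKC-8 cells this call failed in 5 of 6 fits that left out a library and that of ATG3 in 3 of 6.

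**Figure D2:**
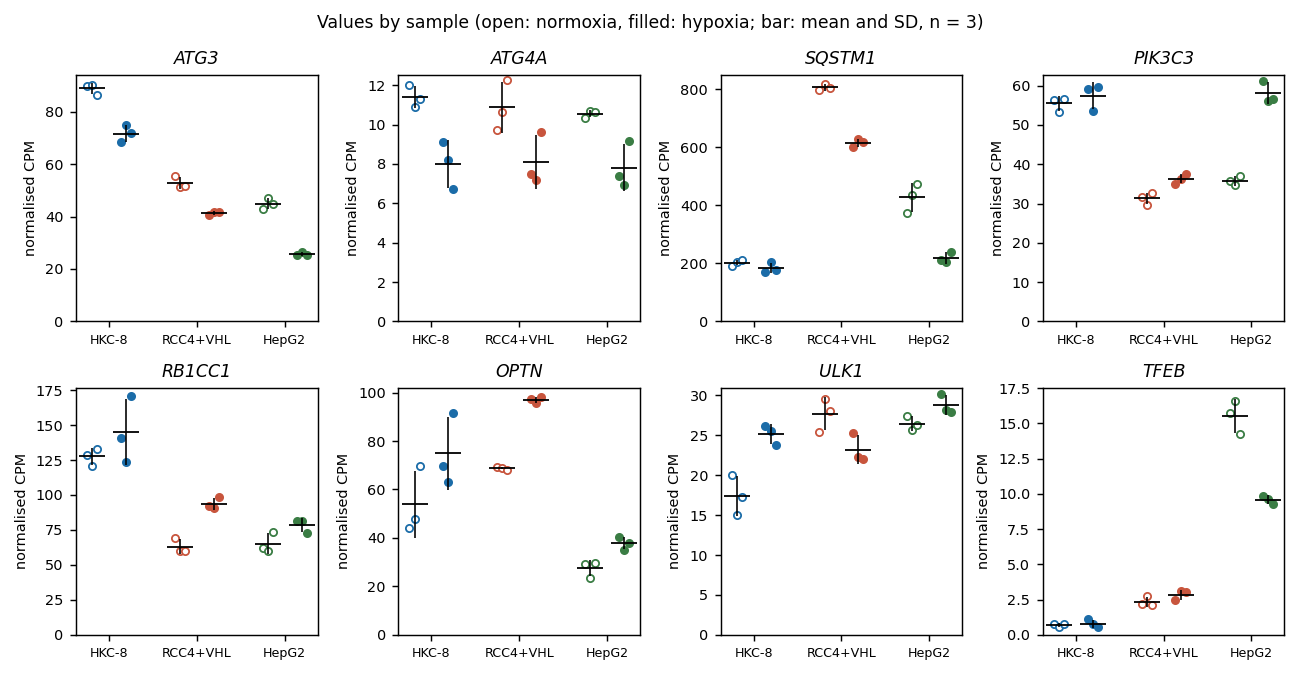
Normalised CPM of 8 autophagy genes in each of the 18 samples, where open points are normoxic and filled points hypoxic, and horizontal bars with whiskers give the mean and SD of 3 samples. The hypoxic points lie below the normoxic ones for ATG3 and ATG4A in every line, for SQSTM1 in RCC4+VHL and HepG2 cells and for TFEB in HepG2 cells.

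The 250 bases before the annotated start of both genes are shown, as RefSeq gives them on GRCh38.p14, because these were the members called in all lines without the replicate block described above. Capitals mark the core of the HIF recognition site, ACGTG or GCGTG, sought on both strands. The ATG3 stretch is chr3:112561963-112562212 on the minus strand and the ATG4A stretch is chrX:108091528-108091777 on the plus strand, each printed 5′ to 3′ along its gene.
ATG3: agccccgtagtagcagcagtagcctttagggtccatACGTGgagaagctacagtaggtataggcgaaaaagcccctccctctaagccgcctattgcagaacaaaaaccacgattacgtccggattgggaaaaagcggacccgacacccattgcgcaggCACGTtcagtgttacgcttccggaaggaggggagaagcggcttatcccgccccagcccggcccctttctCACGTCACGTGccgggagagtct
ATG4A: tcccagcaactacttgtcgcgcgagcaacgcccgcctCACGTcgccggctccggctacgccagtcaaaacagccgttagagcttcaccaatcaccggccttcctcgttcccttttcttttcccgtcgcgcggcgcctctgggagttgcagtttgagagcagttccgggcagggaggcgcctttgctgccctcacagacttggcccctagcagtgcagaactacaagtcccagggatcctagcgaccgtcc
The ATG3 stretch held 5 matches, of which 3 lay in a run 13 to 23 bases before the start. A pair of these were the opposite strands of 1 E-box, CACGTG, the sequence bound by many basic helix-loop-helix factors. ATG4A held 1 match, 209 to 213 bases before the start. The motif is common: it was in 43.1% of 27305 promoter stretches of this length and in 22 of the 36 autophagy genes with an entry. CACGTG was in 6.49% of all stretches and in 3 of the 36, namely ULK3, ATG14 and ATG3, and the longer palindrome TCACGTGA was in 0.89% and in none of the 36. RB1CC1, UVRAG, ATG4D and MAP1LC3A were not matched to the table. Some stretches, such as those of BECN1 and AMBRA1, appear to lie inside the gene rather than before it, and neither of these held a match. The count of autophagy genes with a match is therefore approximate. A match describes letters and does not show that a factor binds.

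The other conjugation genes divided. ATG7, the E1-like enzyme, was called lower in RCC4+VHL cells (log2 fold change -0.14 ± 0.06 SE, adjusted p = 0.0471), a call that was lost in 5 of 6 fits that left out a library, with DESeq2, without the low-count filter and in 1 fit of all 18 samples. ATG5, which is joined to ATG12, was lower in HepG2 cells, with a log2 fold change of -0.25 ± 0.06 (SE, adjusted p = 0.00624). ATG12 was higher in RCC4+VHL cells by 0.18 ± 0.04 (SE, adjusted p = 0.00205) on the log2 scale. ATG10, the E2-like enzyme for ATG12, was higher in HepG2 cells by 0.35 ± 0.11 (SE, adjusted p = 0.0212) on the same scale, and ATG16L1, which brings the ATG12-ATG5 conjugate to the membrane, was lower in HKC-8 cells at a log2 fold change of -0.32 ± 0.09 (SE, adjusted p = 0.0319), which failed the test in 5 of 6 left-out fits. Among the other ATG4 proteases, ATG4B was higher in HepG2 cells (0.31 ± 0.06 SE, adjusted p = 0.000861), ATG4C was lower there (-0.30 ± 0.09 SE, adjusted p = 0.0156) and ATG4D was lower in RCC4+VHL cells (-0.34 ± 0.10 SE, adjusted p = 0.00606). All 4 ATG4 proteases were thus called in some line, 3 of them lower and ATG4B higher. In all, 3 of 11 conjugation genes were lower and the other 8 were not called in HKC-8 cells, 1 was higher and 4 lower in RCC4+VHL cells, and 2 were higher and 4 lower in HepG2 cells. These shares of 27.3%, 45.5% and 54.5% stood beside 20.4%, 50.1% and 39.1% of all genes tested, with 11 genes behind each. On the opposite strand, 17.0% of the ATG4D transcript overlaps KRI1 and 29.9% of the ATG7 transcript overlaps VGLL4. The same holds for 37.7% of BECN1 (CNTD1), 28.3% of WIPI1 (ARSG) and 7.75% of ATG13 (HARBI1).

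The ULK1 complex holds the kinase ULK1 or its relative ULK2, the scaffold RB1CC1 (also named FIP200), ATG13 and ATG101, which is listed in the counted annotation as C12orf44. The group of 6 genes used here also counts ULK3, which is not among these components. In HKC-8 cells 3 of the 6 were higher and the other 3 were not called. In RCC4+VHL cells 1 was higher and 3 lower, and in HepG2 cells 1 was higher and 2 lower of 5 tested. Of all genes tested, 11.2% were higher in HKC-8 cells, 25.9% higher and 24.2% lower in RCC4+VHL cells and 19.9% higher and 19.2% lower in HepG2 cells. ULK1 was at 20.02, 15.02 and 17.3 in normoxia and 26.2, 25.5 and 23.8 in hypoxia in HKC-8 cells, with no overlap, and its log2 fold change was 0.54 ± 0.12 (SE, adjusted p = 0.0149). RCC4+VHL cells had 25.4, 29.6 and 28.1 in normoxia and 25.3, 22.3 and 22 in hypoxia, hypoxic replicate 1 lying just under normoxic replicate 1, with a log2 fold change of -0.25 ± 0.07 (SE, adjusted p = 0.00465) in the opposite direction. The HKC-8 call was lost without normoxic replicate 2 or hypoxic replicate 1, and the RCC4+VHL call was lost when all 18 samples were fitted together. In HepG2 cells ULK1 was not called (0.13 ± 0.07 SE, adjusted p = 0.173).

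ULK2 had the largest fitted change of any autophagy gene in HKC-8 cells, at a low level. Its normalised CPM was 0.613, 0.619 and 0.897 in normoxia and 1.698, 1.54 and 1.89 in hypoxia, from 50 to 81 counts per normoxic and 136 to 156 per hypoxic library, with a log2 fold change of 1.27 ± 0.24 (SE, adjusted p = 0.00821). The RCC4+VHL values were 3.58, 2.15 and 3.34 in normoxia and 4.29, 3.75 and 3.37 in hypoxia, and the groups overlapped (0.34 ± 0.17 SE, adjusted p = 0.104). HepG2 libraries held 0 to 5 ULK2 counts, too few to test.

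RB1CC1 gave the largest change among the called genes of RCC4+VHL cells. Its values there were 69.4, 59.8 and 60.04 in normoxia and 91.8, 90.4 and 98.8 in hypoxia, every hypoxic sample being the higher, and the log2 fold change was 0.58 ± 0.05 (SE, adjusted p = 2.23e-09). In HepG2 cells it was at 61.8, 59.6 and 73.6 in normoxia and 81.7, 81.6 and 72.6 in hypoxia, where hypoxic replicate 3 lay below normoxic replicate 3, and it was called higher (0.29 ± 0.08 SE, adjusted p = 0.0127). In HKC-8 cells it was at 129, 121 and 133 in normoxia and 140.4, 124 and 171 in hypoxia and was not called (0.20 ± 0.12 SE, adjusted p = 0.258). ATG13 was at 84.5, 90.8 and 105 in normoxia and 112, 116 and 113 in hypoxia in HKC-8 cells and at 118, 110.4 and 119.8 in normoxia and 104, 104 and 102 in hypoxia in HepG2 cells, without overlap in either. It was higher in HKC-8 cells (0.29 ± 0.09 SE, adjusted p = 0.0461) and lower in HepG2 cells (-0.16 ± 0.06 SE, adjusted p = 0.0374), although the first call failed in 5 and the second in 4 of 6 left-out fits. ULK3 was lower in RCC4+VHL cells (-0.28 ± 0.08 SE, adjusted p = 0.00831) and in HepG2 cells (-0.29 ± 0.09 SE, adjusted p = 0.0231), and ATG101 was lower in RCC4+VHL cells (-0.18 ± 0.04 SE, adjusted p = 0.000797).

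In the class III kinase complexes the lipid kinase itself, PIK3C3 (VPS34), was raised in RCC4+VHL and HepG2 cells, whereas PIK3R4, UVRAG and AMBRA1 were lowered in at least 1 line each. The normalised CPM of PIK3C3 in HepG2 cells was 35.7, 34.6 and 36.99 in normoxia and 61.3, 56.2 and 56.7 in hypoxia. The hypoxic values stood well clear of the normoxic ones, and the log2 fold change was 0.71 ± 0.07 (SE, adjusted p = 2.11e-06), the largest increase among the autophagy genes called in HepG2 cells. RCC4+VHL cells had 31.6, 29.7 and 32.6 in normoxia and 35.1, 36.4 and 37.4 in hypoxia, again without overlap, with a smaller log2 fold change of 0.22 ± 0.05 (SE, adjusted p = 0.00166). In HKC-8 cells it was at 56.3, 53.4 and 56.7 in normoxia and 59.1, 53.5 and 59.8 in hypoxia, the groups overlapped and it was not called (0.06 ± 0.08 SE, adjusted p = 0.622).

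PIK3R4 (VPS15), the regulatory subunit that PIK3C3 needs, was lower in HKC-8 cells. Its values were 76.4, 75.2 and 78.1 in normoxia and 61.97, 62.97 and 57.8 in hypoxia, without overlap, and the log2 fold change was -0.32 ± 0.07 (SE, adjusted p = 0.0149), lost without normoxic replicate 1 or hypoxic replicate 1. In the other lines PIK3R4 was not called (log2 fold change -0.03 in RCC4+VHL and -0.11 in HepG2 cells). ATG14, which directs the complex to the site of autophagosome formation, was higher in RCC4+VHL cells, at 10.98, 10.6 and 10.02 in normoxia and 14.6, 13.9 and 13.6 in hypoxia, with no overlap and a log2 fold change of 0.42 ± 0.08 (SE, adjusted p = 9.09e-05). UVRAG, the subunit that takes the place of ATG14 in the endosomal complex, was lower in RCC4+VHL cells (-0.33 ± 0.06 SE, adjusted p = 0.00015) and in HepG2 cells (-0.24 ± 0.08 SE, adjusted p = 0.0249). AMBRA1 was lower in HepG2 cells (-0.29 ± 0.08 SE, adjusted p = 0.0103). BECN1, the core subunit shared by both complexes, was called in none of the lines, with log2 fold changes of -0.15, -0.05 and -0.12 in HKC-8, RCC4+VHL and HepG2 cells.

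Among the genes of phagophore expansion ATG9A, a transmembrane lipid scramblase carried on vesicles that seed the membrane, was raised most. It was at 98.7, 97.7 and 100.1 in normoxia and 139, 133 and 144 in hypoxia in HepG2 cells, a log2 fold change of 0.50 ± 0.06 (SE, adjusted p = 1.37e-05) with no overlap, and it was also higher in RCC4+VHL cells (0.15 ± 0.04 SE, adjusted p = 0.0053). WIPI2, which reads the lipid made by PIK3C3, was higher in HepG2 cells (0.21 ± 0.06 SE, adjusted p = 0.00974). WIPI1, a relative of WIPI2, was lower in RCC4+VHL cells (-0.34 ± 0.07 SE, adjusted p = 0.000195), as was the lipid transfer gene ATG2A (-0.32 ± 0.06 SE, adjusted p = 0.000123). ATG2B and VMP1 were called in none of the lines. In HKC-8 cells 0 of these 6 genes were called, 1 had an unadjusted p below 0.05 and 1 was called by DESeq2. The shares of these 6 genes called were 0%, 50% and 33.3% in HKC-8, RCC4+VHL and HepG2 cells, beside 20.4%, 50.1% and 39.1% of all genes tested.

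The ATG8 family are the ubiquitin-like proteins that are attached to the membrane, and of the 5 genes GABARAP was called in 1 line and GABARAPL1 in 2. MAP1LC3A had no count in 17 of the 18 libraries and 1 count in the other, below the 3 counts that a count of 0 allows (0.0306 to 0.0733 CPM per library). MAP1LC3B, the gene behind the LC3B protein often used to follow autophagy, was at 107, 109 and 114 in normoxia and 126, 119 and 125 in hypoxia in HKC-8 cells. It was at 163, 155 and 168 in normoxia and 156, 153 and 160.0 in hypoxia in RCC4+VHL cells and at 169, 171 and 183 in normoxia and 158, 148 and 164 in hypoxia in HepG2 cells. Hypoxic samples were all above normoxic ones in HKC-8 cells, overlapped them in RCC4+VHL cells and were all below them in HepG2 cells, and it was called in none of the lines other than in HKC-8 cells with the replicate block (adjusted p = 0.0271) or in 1 fit of all 18 samples (0.026). Its log2 fold changes were 0.18 ± 0.07 (SE, adjusted p = 0.108), -0.04 ± 0.04 (SE, adjusted p = 0.39) and -0.14 ± 0.06 (SE, adjusted p = 0.0774) in HKC-8, RCC4+VHL and HepG2 cells. The near copy MAP1LC3B2 had 30 to 330 counts per library, so that the split of reads between these copies is uncertain.

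GABARAP was at 178, 173 and 179 in normoxia and 136, 142 and 144 in hypoxia in RCC4+VHL cells. All hypoxic values were the lower, with a log2 fold change of -0.32 ± 0.04 (SE, adjusted p = 1.6e-07). In HKC-8 cells it was at 79.4, 80.8 and 103 in normoxia and 86.8, 85.2 and 95.6 in hypoxia, and in HepG2 cells at 130.1, 126 and 118 in normoxia and 121, 115 and 120.4 in hypoxia. These groups overlapped, and the log2 fold changes of 0.04 and -0.07 were not called.

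GABARAPL1 was called higher in RCC4+VHL cells, where GABARAP was lower, other than in the fit of all 18 samples. It was at 71.1, 68.3 and 68.3 in normoxia and 84.1, 77.7 and 81.7 in hypoxia there, with no overlap and a log2 fold change of 0.24 ± 0.04 (SE, adjusted p = 6.63e-05). HepG2 cells had less of it, 13.4, 12.3 and 13.5 in normoxia and 19.3, 16.4 and 17.9 in hypoxia, again without overlap, and it was higher by 0.46 ± 0.09 (SE, adjusted p = 0.00127). In HKC-8 cells it was at 42.05, 35.3 and 51.9 in normoxia and 42.4, 31.7 and 37.4 in hypoxia, where the groups overlapped (-0.20 ± 0.15 SE, adjusted p = 0.375).

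In HKC-8 cells 0 of the ATG8 family were called, 1 had an unadjusted p below 0.05 and 0 were called by DESeq2. Of the 4 family genes tested, 2 were called in RCC4+VHL and 1 in HepG2 cells. The shares over all genes tested were 20.4%, 50.1% and 39.1% in HKC-8, RCC4+VHL and HepG2 cells. GABARAPL2 was at 54.8, 49.9 and 53.04 in normoxia and 54.8, 54.5 and 50.98 in hypoxia in HKC-8 cells, 80.8, 76.9 and 83.1 in normoxia and 74.99, 76.8 and 78.9 in hypoxia in RCC4+VHL cells and 76.1, 83.9 and 71.7 in normoxia and 75.3, 74.6 and 71.1 in hypoxia in HepG2 cells. The groups overlapped in every line, and its log2 fold changes of 0.03, -0.05 and -0.06 were not called. Divided by transcript length and summed, the ATG8 family stood at 194 ± 16.3 (SD, n = 3) CPM per kilobase in normoxic and 199.6 ± 5.90 in hypoxic HKC-8 cells. The sums were 329 ± 9.18 and 302 ± 5.90 in RCC4+VHL cells, and 262 ± 6.55 and 248 ± 6.18 in HepG2 cells. GABARAP went in RCC4+VHL cells from 40.8% ± 0.371 to 35.4% ± 0.639 of that sum and GABARAPL1 went from 11.2% ± 0.349 to 14.3% ± 0.643.

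**Figure D3:**
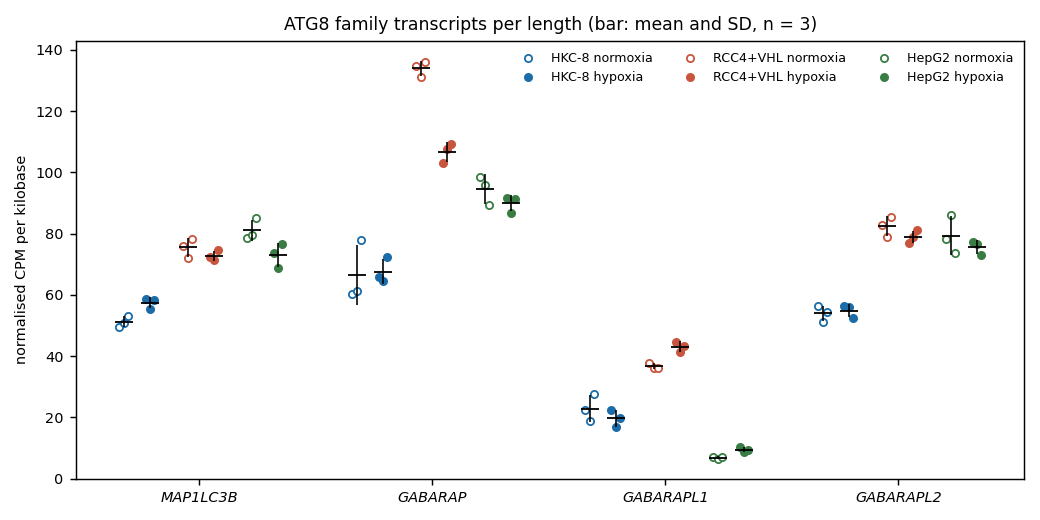
Normalised CPM per kilobase of the 4 detected ATG8 family genes in each of the 18 samples, where open points are normoxic and filled points hypoxic, and horizontal bars with whiskers give the mean and SD of 3 samples. GABARAP lay lower in hypoxic than in normoxic RCC4+VHL cells, and GABARAPL1 lay higher in hypoxic RCC4+VHL and HepG2 cells.

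Of the cargo receptors, SQSTM1 (p62), which carries ubiquitinated cargo, fell most. Its normalised CPM in HepG2 cells was 374, 436 and 474 in normoxia and 210.2, 204 and 241 in hypoxia, so that the highest hypoxic sample was far below the lowest normoxic one. The log2 fold change of -0.96 ± 0.09 (SE, adjusted p = 1.75e-06) was the largest decrease of the 40 genes in any line. RCC4+VHL cells, with the highest level of the 3 lines, were at 798, 818 and 803 in normoxia and 601, 628 and 619.5 in hypoxia, also without overlap (-0.38 ± 0.03 SE, adjusted p = 5.94e-10). In HKC-8 cells the values of 193, 205 and 211 in normoxia and 170.2, 204 and 177 in hypoxia overlapped and the gene was not called (-0.13 ± 0.09 SE, adjusted p = 0.315). On the opposite strand, 48.7% of the SQSTM1 transcript overlaps MRNIP, listed in the counted annotation as C5orf45. The log2 fold change of MRNIP was 0.04 ± 0.17 (SE, adjusted p = 0.884) in HepG2 and 0.63 ± 0.24 (SE, adjusted p = 0.0323) in RCC4+VHL cells. With the strand setting unknown, the part of this overlap in the SQSTM1 result was not tested.

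OPTN (optineurin), a receptor for damaged mitochondria and bacteria, went the other way. RCC4+VHL cells had 69.3, 68.97 and 68.2 in normoxia and 97.2, 95.8 and 98.1 in hypoxia, with narrow spread and a log2 fold change of 0.51 ± 0.04 (SE, adjusted p = 2.36e-10). HepG2 cells were at 29.2, 23.6 and 29.5 in normoxia and 40.3, 35.1 and 38 in hypoxia, all hypoxic samples being the higher (0.47 ± 0.09 SE, adjusted p = 0.000968). HKC-8 cells were at 44.04, 47.6 and 69.8 in normoxia and 69.8, 63.1 and 91.8 in hypoxia, where replicate 3 was the highest of both groups. The HKC-8 change of 0.49 ± 0.19 (SE, adjusted p = 0.0987) was as large but was called only with the replicate block (adjusted p = 0.000308), DESeq2 (0.0398), the fit of all 18 samples (0.0121) or without normoxic replicate 3 (0.0115), and its adjusted p ranged up to 0.297 without hypoxic replicate 3. NBR1, which acts with SQSTM1, was higher in RCC4+VHL (0.26 ± 0.04 SE, adjusted p = 2.81e-06) and HepG2 cells (0.23 ± 0.08 SE, adjusted p = 0.0402). TAX1BP1 was called in none of the lines. In HKC-8 cells 0 of the 4 receptors were called, 1 had an unadjusted p below 0.05 and 1 was called by DESeq2. In RCC4+VHL and in HepG2 cells 3 of the 4 were called. Of all genes tested, 20.4% were called in HKC-8, 50.1% in RCC4+VHL and 39.1% in HepG2 cells.

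The promoter stretches of the genes with the largest rise and the largest fall in HepG2 cells are shown for comparison with those above. PIK3C3 is given for chr18:41954984-41955233 and SQSTM1 for chr5:179806143-179806392, both on the plus strand of GRCh38.p14 and with the same marks.
PIK3C3: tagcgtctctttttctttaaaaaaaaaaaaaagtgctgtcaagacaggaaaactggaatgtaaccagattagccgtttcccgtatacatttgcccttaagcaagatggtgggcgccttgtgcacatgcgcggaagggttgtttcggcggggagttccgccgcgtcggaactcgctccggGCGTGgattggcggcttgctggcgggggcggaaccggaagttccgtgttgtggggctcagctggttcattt
SQSTM1: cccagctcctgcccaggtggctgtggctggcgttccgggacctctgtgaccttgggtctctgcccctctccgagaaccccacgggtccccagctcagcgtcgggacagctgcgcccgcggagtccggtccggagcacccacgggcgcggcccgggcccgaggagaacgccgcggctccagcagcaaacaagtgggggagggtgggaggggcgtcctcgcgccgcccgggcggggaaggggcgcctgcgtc
PIK3C3 held 1 match to the HIF core, 67 to 71 bases before the start. SQSTM1 held none in this window. Whether either window stands before the start of the transcripts measured here was not checked, so the lack of a match may not describe the promoter in use.

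TFEB, a master regulator of lysosomal genes, was lower in HepG2 cells, where it was at 15.7, 16.6 and 14.2 in normoxia and 9.87, 9.62 and 9.26 in hypoxia. The groups did not overlap, and the log2 fold change was -0.69 ± 0.10 (SE, adjusted p = 9.54e-05). It was at 2.16, 2.75 and 2.102 in normoxia and 2.44, 3.09 and 3.01 in hypoxia in RCC4+VHL cells and in HKC-8 cells, with 43 to 87 counts per library, at 0.781, 0.545 and 0.753 in normoxia and 1.09, 0.7499 and 0.5204 in hypoxia. Neither was called (0.29 ± 0.17 SE, adjusted p = 0.172 and 0.19 ± 0.33 SE, adjusted p = 0.722). Its relative TFE3 was lower in HepG2 cells, with a log2 fold change of -0.18 ± 0.06 (SE, adjusted p = 0.0334) that failed the test in 5 of 6 left-out fits, and its log2 fold changes of -0.10 in HKC-8 and 0.04 in RCC4+VHL cells were not called. In both kidney lines 0 of the 2 factors had an unadjusted p below 0.05 or were called by DESeq2. Of all genes tested, 20.4% were called in HKC-8 and 50.1% in RCC4+VHL cells.

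An interaction of line and oxygen was fitted to ask if hypoxia acted differently on HepG2 and on HKC-8 cells. Both are described as exposed to 0.5% oxygen for 16 h, but the HKC-8 titles give 0.1%. Unequal exposure is therefore possible, and its part in the result was not tested. The difference in response passed the test for 6 of 39 autophagy genes, 2 of them higher and 4 lower in HepG2 cells. This was 15.4% in all, against 9.3% of all genes tested (5.02% higher and 4.28% lower). Hypoxia moved PIK3C3 up by more in HepG2 than in HKC-8 cells, the difference between the log2 fold changes (HepG2 minus HKC-8) being 0.65 ± 0.10 (SE, adjusted p = 0.000863). GABARAPL1 differed in the same direction by 0.67 ± 0.19 (SE, adjusted p = 0.0402). The change was more negative in HepG2 cells for SQSTM1 (-0.82 ± 0.13 SE, adjusted p = 0.00119), ATG3 (-0.49 ± 0.09 SE, adjusted p = 0.0037), ATG13 (-0.45 ± 0.11 SE, adjusted p = 0.0157) and MAP1LC3B (-0.32 ± 0.09 SE, adjusted p = 0.0465). PIK3C3, ATG3 and SQSTM1 were called whichever of the 12 libraries was left out, ATG13 in all but the fit without hypoxic HepG2 replicate 3, and MAP1LC3B and GABARAPL1 each in 2 of the 12 fits. ATG3 was thus lower in both lines and lower by more in HepG2 cells. TFEB, which was called in HepG2 cells alone of the pair, was not called in this test (-0.87 ± 0.29 SE, adjusted p = 0.0765), but it was called with the replicate block (0.0214), with DESeq2 (0.0166), in 1 fit of all 18 samples (0.0432) and without hypoxic HKC-8 replicate 3 (0.0155), and its adjusted p ranged up to 0.223 without hypoxic HKC-8 replicate 1. The block also added ULK1, more negative in HepG2 cells (adjusted p = 0.0206 against 0.0924), and ATG9A, more positive there (0.043 against 0.164). The MAP1LC3B call was lost with median-of-ratios size factors (0.0539) and without the low-count filter (0.0723).

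**Figure D4:**
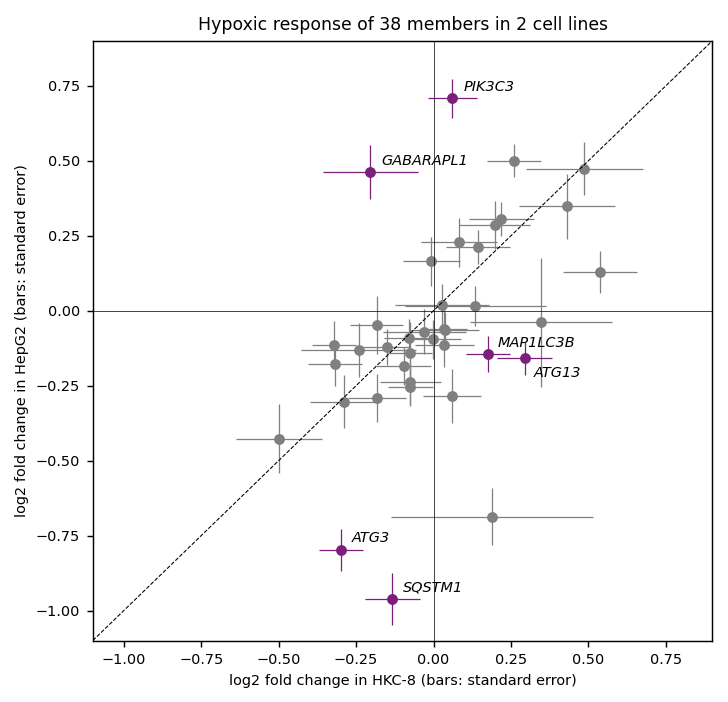
Log2 fold change in hypoxia of the 38 autophagy genes tested in both lines, HKC-8 on the horizontal and HepG2 on the vertical axis, with standard errors as bars, and the dashed line marks equal change. The 6 named genes, whose responses passed the test of the difference, lie off the line.

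The normoxic level of the machinery differed between the cell lines for most of its genes, as it was for most genes. Between RCC4+VHL and HKC-8 cells 20 of 39 genes were higher and 12 lower in RCC4+VHL (82.1%, against 80.8% of all genes tested, 39.4% higher and 41.4% lower). Between HepG2 and HKC-8 cells 21 were higher and 12 lower in HepG2 (84.6% against 83%, 42.6% higher and 40.5% lower), and between HepG2 and RCC4+VHL cells 15 were higher and 18 lower in HepG2 (84.6% against 83.3%, 45.3% higher and 38.1% lower). Per kilobase of transcript SQSTM1 was the most abundant of the 40 in each line, at 71.4 ± 3.30 CPM per kilobase in HKC-8, 284 ± 3.72 in RCC4+VHL and 151 ± 17.7 in HepG2 cells (SD, n = 3). GABARAP came next, at 66.4 ± 9.86, 133.9 ± 2.54 and 94.6 ± 4.82, and in HKC-8 cells its spread reached the level of SQSTM1. ATG16L2, TFEB, ULK2 and MAP1LC3A were the lowest 4 in both kidney lines.

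WIPI1 was at 3.42, 3.35 and 5.81 normalised CPM in normoxic HKC-8, 21.8, 22.4 and 24.3 in RCC4+VHL and 49.6, 48.8 and 53.5 in HepG2 cells. The 3 lines did not overlap, and RCC4+VHL exceeded HKC-8 by 2.45 ± 0.17 (SE, adjusted p = 8.64e-09) and HepG2 exceeded HKC-8 by 3.62 ± 0.17 (SE, adjusted p = 1.52e-10) on the log2 scale. SQSTM1 was higher in RCC4+VHL than in HKC-8 cells by 2.00 ± 0.08 (SE, adjusted p = 5.13e-11). TFEB, at the normoxic values given above, was higher in HepG2 than in HKC-8 cells by 4.51 ± 0.18 (SE, adjusted p = 2.22e-11) and than in RCC4+VHL cells by 2.75 ± 0.17 (SE, adjusted p = 1.67e-09). GABARAPL1 was lower in HepG2 than in RCC4+VHL cells, with a log2 difference of -2.38 ± 0.12 (SE, adjusted p = 2.55e-10). ULK2 was higher in RCC4+VHL than in HKC-8 cells by 2.09 ± 0.27 (SE, adjusted p = 7.47e-06). Its log2 difference was -3.47 ± 0.47 (SE, adjusted p = 9.20e-06) for HepG2 against HKC-8 cells. For HepG2 against RCC4+VHL cells it was -5.56 ± 0.42 (SE, adjusted p = 2.13e-08). The 3 normoxic HepG2 libraries held 8 ULK2 counts in all, against 182 in HKC-8 and 429 in RCC4+VHL libraries, so that ULK2 was 11.8-fold (95% exact interval of the counting error 5.88 to 27.8) and 49.1-fold (24.7 to 114) higher per unit of depth in those lines.

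**Figure D5:**
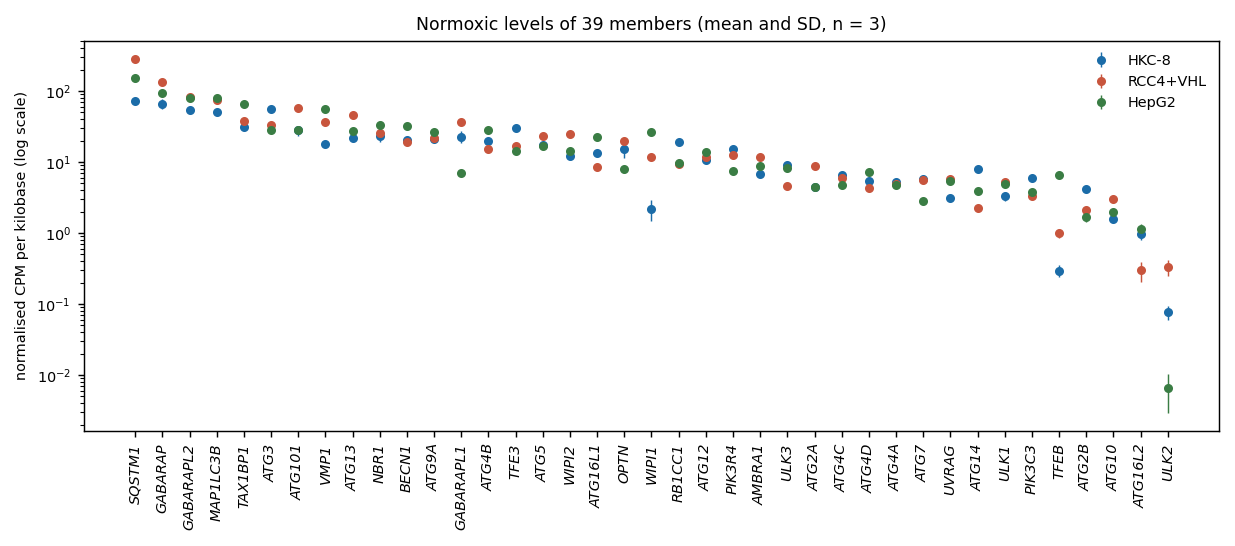
Normoxic level of 39 autophagy genes (all but MAP1LC3A) in the 3 cell lines as CPM per kilobase of transcript on a log axis, mean with SD of 3 samples. SQSTM1 and GABARAP are the highest and ULK2 in HepG2 cells the lowest, and WIPI1 and TFEB are widely spread between lines.

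Further autophagy genes outside the 40 were taken as a list of 31, of which BNIP3 and BNIP3L, receptors that bring mitochondria into autophagosomes and are known HIF targets, changed far more than the machinery. Of that list, 6 of 31 tested were higher and 2 lower in HKC-8, 11 of 30 and 3 of 30 in RCC4+VHL and 6 of 30 and 5 of 30 in HepG2 cells. The shares called were 25.8%, 46.7% and 36.7%, near the 20.4%, 50.1% and 39.1% of all genes tested in these lines. BNIP3 rose by 2.69 ± 0.10 (SE, adjusted p = 1.8e-06) in HKC-8, 3.26 ± 0.04 (SE, adjusted p = 9.75e-26) in RCC4+VHL and 2.51 ± 0.07 (SE, adjusted p = 6.94e-12) in HepG2 cells on the log2 scale. BNIP3L rose by 1.94 ± 0.18 (SE, adjusted p = 0.000229), 2.17 ± 0.04 (SE, adjusted p = 3.04e-22) and 3.44 ± 0.08 (SE, adjusted p = 1.34e-12), respectively. Next in size among the called genes were MITF, a relative of TFEB and TFE3, in HKC-8 cells (0.57 ± 0.11 SE, adjusted p = 0.00826), the ATG8 family gene MAP1LC3C in RCC4+VHL cells (-2.05 ± 0.31 SE, adjusted p = 6.73e-06, at 14 to 195 counts per library over all lines) and PRKAA2, a catalytic subunit of the AMP-activated kinase, in HepG2 cells (0.63 ± 0.08 SE, adjusted p = 6.27e-05).

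Of 26 lysosomal genes, the compartment that receives autophagosomes, 1 of 24 tested was higher and the other 23 were not called in HKC-8 cells, 7 of 24 higher and 11 lower in RCC4+VHL cells and 3 of 25 higher and 9 lower in HepG2 cells. The shares called were 4.17%, 75% and 48%, against 20.4%, 50.1% and 39.1% of all genes tested. The 1 gene in HKC-8 cells was CTSB, the protease cathepsin B (0.45 ± 0.11 SE, adjusted p = 0.0214). SCARB2, GLA and MCOLN1 changed most in RCC4+VHL cells, with log2 fold changes of 0.44 ± 0.04 (SE, adjusted p = 4.65e-10), -0.42 ± 0.05 (SE, adjusted p = 1.07e-07) and -0.42 ± 0.09 (SE, adjusted p = 0.000395). The calcium channel gene MCOLN1, the sialidase gene NEU1 and the proton pump gene ATP6V0E1 changed most in HepG2 cells, with log2 fold changes of -0.66 ± 0.10 (SE, adjusted p = 0.000266), -0.56 ± 0.07 (SE, adjusted p = 4.82e-05) and -0.51 ± 0.08 (SE, adjusted p = 0.000161). NEU1 was listed at 0 in every HKC-8 library and at no more than 0.0208 CPM in RCC4+VHL libraries. All of these were lower apart from CTSB and SCARB2.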

How the data were processed

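The authors trimmed reads with Trim Galore 0.3.3, aligned them to GRCh37 with TopHat 2.0.8b and Bowtie 1.0.0, removed fragments that did not map uniquely with SAMtools 0.1.19 and deposited read counts per UCSC gene from HTSeq 0.5.4p3 in its strict intersection mode, 1 file per sample. Libraries were made from polyA+ RNA with the ScriptSeq v2 kit. The HKC-8 libraries had been split over lanes. The strand setting of the counting is not given in the sources used here.

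The deposited counts were tested in R 4.3.3 with edgeR 4.0.16 (filterByExpr, TMM scaling, quasi-likelihood test, Benjamini-Hochberg adjustment over all genes that passed the filter, threshold 0.05). Each cell line was fitted apart, the interaction was fitted on 12 samples and the normoxic levels on 9. The alternatives were DESeq2 1.42.0, median-of-ratios factors, other low-count filters, the replicate number as a block, 1 fit of all 18 samples and leaving out each library. The scripts were tested on simulated data. Standard errors are those of the fitted log2 values. Displayed levels are CPM after TMM over all 18 samples, divided where stated by the length of the MANE Select transcript (GENCODE annotation on GRCh37), and intervals on counts cover counting error only. At these depths fitted log2 changes of the autophagy genes had standard errors between 0.0704 and 0.327 (HKC-8), between 0.0308 and 0.323 (RCC4+VHL) and between 0.0558 and 0.215 (HepG2).

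Same-numbered HKC-8 samples deviated together (r = 0.113, 0.469 and 0.456 over genes), which meets the rule for pairing used here (each above 0.1), although normoxic replicate 1 correlated best with hypoxic replicate 2. RCC4+VHL and HepG2 samples did not meet it. The values of every sample were given for genes called in the same direction in all lines, for the 4 largest called changes of each line and for the ATG8 family. TFEB, TFE3, genes called in opposite directions, genes called in the interaction, the 3 largest called changes per line in each further list and the 3 largest normoxic differences per pair of lines were named with at least their log2 values. The genes and lists were chosen with earlier results of these data known, and other genes named with values, such as ATG9A, were chosen after their values were seen. Promoter stretches were read from RefSeq (GRCh38.p14), with 1 entry per gene, which need not mark the main start of transcription. RefSeq synonyms matched 4 of the listed names to older symbols.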

Additional observations from a re-analysis of the deposited data

Results flagged for a closer look

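The responses of 6 autophagy genes to hypoxia differed between HKC-8 and HepG2 cells in the interaction test (edgeR's quasi-likelihood test, values as HepG2 minus HKC-8 on the log2 scale). PIK3C3 differed by 0.65 and GABARAPL1 by 0.67. The difference was -0.45 for ATG13, -0.49 for ATG3, -0.32 for MAP1LC3B and -0.82 for SQSTM1. For PIK3C3 all 3 hypoxic HepG2 samples exceeded the normoxic ones while the HKC-8 groups overlapped, and for MAP1LC3B the 3 hypoxic samples were all above the normoxic ones in HKC-8 and all below them in HepG2 cells. The calls of GABARAPL1 and MAP1LC3B were each lost in 10 of 12 fits that left out a library. In the main test within each line, MAP1LC3B was called in neither (adjusted p = 0.108 in HKC-8 and 0.0774 in HepG2 cells). Groups of 3 samples are too small for a test of single outlying samples. The HKC-8 titles give 0.1% oxygen where 0.5% is described, so unequal exposure of these lines is possible.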

How the results depend on the processing

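In HKC-8 cells the count of autophagy genes called higher was 3, and it was 6 with DESeq2, 8 with the replicate block and 8 in 1 fit of all 18 samples, with 1 to 4 when single libraries were left out. The count called lower was 4, and it was 7 with the replicate block and 0 to 3 with single libraries left out. In RCC4+VHL cells 1 fit of all 18 samples gave 4 higher and 7 lower in place of 8 and 12. In HepG2 cells single libraries left out gave 6 to 9 higher and 5 to 11 lower, with 5 lower without hypoxic replicate 1 and 6 lower without hypoxic replicate 2, and in the test of the difference between lines they gave 1 to 2 higher and 2 to 4 lower. With the replicate block the difference was called for 3 genes higher and 6 lower. The replicates of RCC4+VHL and HepG2 cells did not meet the rule for pairing. Their same-number r was -0.011, 0.033 and 0.014 in RCC4+VHL and 0.162, 0.061 and 0.181 in HepG2 cells. The same number was the best match for all 3 HepG2 replicates. The block gave 8 higher and 13 lower in RCC4+VHL cells, and 9 and 12 in HepG2 cells. The normoxic counts stayed within 1.5 times of their value under every alternative. Over all genes, the HKC-8 counts of 1522 higher and 1235 lower became 2836 and 2919 with the replicate block and 2503 and 2510 in 1 fit of all 18 samples, and fell to as few as 687 and 326 with a library left out. The RCC4+VHL counts of 3318 and 3105 became 1867 and 1419 in 1 fit of all 18 samples. The interaction counts of 755 and 644 became 1656 and 1363 with the block, 1209 and 1010 in 1 fit of all 18 samples, and 481 to 932 and 430 to 1000 with a library left out.

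Values that changed sign were small and belonged to genes that were not called. In HKC-8 cells these were TFEB (range -0.11 to 0.41 over the fits with a library left out, negative without hypoxic replicate 1), GABARAP (-0.032 to 0.16, negative without normoxic replicate 1, normoxic replicate 2 or hypoxic replicate 3) and GABARAPL2 (-0.0028 to 0.062, negative without normoxic replicate 2). TFE3 ranged from -0.0051 (without normoxic replicate 3) to 0.066 in RCC4+VHL cells, and GABARAPL2 from -0.12 to 0.015 (without normoxic replicate 2) in HepG2 cells. The cause of these shifts was not tested. In RCC4+VHL cells 19 of 20 called genes and in HepG2 cells 10 of 20 were called whichever library was left out, against 1 of 7 in HKC-8 cells. The HepG2 calls lost in at least 1 such fit were those of ULK3, RB1CC1, ATG13, UVRAG, AMBRA1, ATG4A, ATG4C, ATG10, NBR1 and TFE3. Under the alternatives that kept every library, 7 of 7 calls held throughout in HKC-8, 11 of 20 in RCC4+VHL and 17 of 20 in HepG2 cells, where ATG13, NBR1 and TFE3 were lost in 1 fit of all 18 samples. The 8 ULK2 counts of normoxic HepG2 cells and the 43 to 87 TFEB counts of HKC-8 libraries limit what can be said of those genes there.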
